A study of Mus musculus with 6 samples.

Results

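The glycolytic enzymes of sperm were followed here as 1 gene for each enzyme step of glycolysis down to lactate, apart from enolase. The germ-cell isoform was taken where mice have one, except for aldolase. At that step the list holds Aldoa and leaves out Aldoart1 and Aldoart2, aldolase retrogenes expressed in sperm. The 10 genes listed were Hk1, Gpi1, Pfkp, Aldoa, Tpi1, Gapdhs, Pgk2, Pgam2, Pkm and Ldhc, and their members were all probe sets that the array's annotation gives to exactly 1 of these symbols. Of these 10 genes, 9 had such a probe set, against 18193 genes on the whole array. They had 19 of the array's 45101 probe sets, and all 19 passed the filter on low signals. Gpi1 (chr7:34201327-34230336 on GRCm38.p6), which encodes glucose-6-phosphate isomerase, had none and was not measured here. A further probe set that names Hk1 together with other genes was left out.

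RNA was measured on 6 Affymetrix arrays of GFP-positive elongating spermatids sorted from testes of ICR mice, an outbred strain with a wildtype genotype. Testes were transduced in males aged 5 weeks with a lentivirus, and cells were sorted 1 week later. The groups were shMiwi:GFP, a short hairpin RNA named for Miwi (Piwil1, a PIWI protein that binds piRNAs), shCaf1:GFP, a short hairpin RNA named for Caf1 (taken here to be the deadenylase Cnot7), and the control vector pSilencer:GFP, with 2 arrays each. All 3 groups therefore carried a lentiviral vector and GFP. The replicates are labelled biological, the labels also call the animals adult, and the number of mice behind an array is not given in the sources used here, so that p-values measure only the spread between these arrays. The question was how spermatid transcripts differ when either factor is targeted.

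Glycolysis splits glucose into pyruvate and yields ATP without oxygen. Lactate dehydrogenase then turns pyruvate into lactate and regenerates the NAD that glyceraldehyde-3-phosphate dehydrogenase consumes. Mouse sperm rely on this pathway for the ATP that drives the flagellum, and several of its enzymes are held on the fibrous sheath of the tail. Many of the genes involved are isoforms made in germ cells: Gapdhs, Pgk2 and Ldhc are switched on during or after meiosis, and Pgk2 is a retrogene that takes over from the X-linked Pgk1.

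The promoter windows of these 3 germ-cell genes are shown because they belong to 1 pathway and tissue, and because Gapdhs and Pgk2 were lower in shMiwi than in shCaf1 cells while the call for Ldhc missed the threshold. Each window runs from 250 bases before to 50 bases after the most upstream start in RefSeq (GRCm38.p6), 5′ to 3′ on the gene's strand, and capitals mark a GC box (GGGCGG) or the core TGACG of the cAMP response element, on which the spermatid activator CREM acts. The windows are chr7:46861013-46861312 (plus strand) for Ldhc, chr7:30743632-30743931 (minus strand) for Gapdhs and chr17:40208560-40208859 (minus strand) for Pgk2.
Ldhc: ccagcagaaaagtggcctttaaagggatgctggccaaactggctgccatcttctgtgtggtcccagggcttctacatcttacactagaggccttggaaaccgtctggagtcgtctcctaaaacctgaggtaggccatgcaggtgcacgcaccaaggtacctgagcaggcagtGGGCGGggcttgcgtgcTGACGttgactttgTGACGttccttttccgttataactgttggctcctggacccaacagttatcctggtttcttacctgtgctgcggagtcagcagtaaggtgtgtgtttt
Gapdhs: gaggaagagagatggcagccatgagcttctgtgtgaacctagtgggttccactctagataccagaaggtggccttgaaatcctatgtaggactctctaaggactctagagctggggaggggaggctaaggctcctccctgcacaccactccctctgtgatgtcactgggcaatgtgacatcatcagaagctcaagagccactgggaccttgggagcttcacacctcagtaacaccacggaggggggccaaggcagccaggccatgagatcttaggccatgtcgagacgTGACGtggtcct
Pgk2: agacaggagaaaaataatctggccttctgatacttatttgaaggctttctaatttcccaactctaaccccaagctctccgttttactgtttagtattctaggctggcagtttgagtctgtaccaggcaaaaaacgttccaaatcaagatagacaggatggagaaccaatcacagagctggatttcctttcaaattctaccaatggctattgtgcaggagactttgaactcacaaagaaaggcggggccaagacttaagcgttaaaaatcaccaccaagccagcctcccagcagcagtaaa
Counted with the start site as position 1, the Ldhc window held a GC box from position -78 and the core from positions -61 and -47, the Gapdhs window held the core from position 39, and the Pgk2 window held neither. Both strands were searched, also for the full element TGACGTCA, which contains the core. All 10 genes had a window, and among their most upstream windows 0 of 10 held the full element, 3 held the core (Gapdhs, Ldhc and Pkm) and 5 held a GC box (Gpi1, Ldhc, Pfkp, Pkm and Tpi1). Of 32817 RefSeq windows of this length, 1.79% held the full element, 20.8% the core and 35.6% a GC box. A match describes the letters and is no evidence of binding.

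The arrays were not all alike. Hybridization controls (bioB, bioC, bioD and cre), which are labelled RNAs spiked into each hybridization, read between 0.806 and 1.20 times their shRNA mean on the 4 shRNA arrays, but 82.3 times on control replicate 1 and 16.2 times on control replicate 2. Log2 signals correlated at 0.982 between the shMiwi replicates and 0.983 between the shCaf1 replicates, and at 0.451 between the control replicates. Gapdh, read at both ends of its transcript as a measure of RNA quality, had 3′ to 5′ ratios of 0.811 and 1.00 in shMiwi cells, 1.06 and 1.73 in shCaf1 cells, and 0.723 and 5.11 in control cells. Of the targeted genes, Piwil1 had signals of 9780 and 10392 in shMiwi cells and 21881 and 22442 in shCaf1 cells, against 1445360 and 292542 in control cells. Scaled on the spiked RNAs, Piwil1 read 10391 and 12893 in shMiwi cells and 19926 and 18695 in shCaf1 cells, against 17566 and 18023 in control cells. Cnot7 read 4365 and 5012 in shMiwi cells and 3633 and 4330 in shCaf1 cells, against 2003570 and 188877 in control cells. The difference between the shRNA groups did not pass the test (limma adjusted p = 0.307). Scaled on the spiked RNAs, this Cnot7 probe set read 4638 and 6218 in shMiwi and 3308 and 3607 in shCaf1 cells. The control cells then read 24350 and 11636. A dimmer Cnot7 probe set read 645 and 605 in shMiwi cells against 388 and 353 in shCaf1 cells as deposited. Another read 276 and 347 in shMiwi cells against 237 and 231 in shCaf1 cells.

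The label of the cells was checked on 12 genes of elongating spermatids, such as protamines and tail proteins. Their median percentile within the array was 99.1 and 99.0 in shMiwi cells, 99.6 and 99.6 in shCaf1 cells, and 43.7 and 99.1 on the control arrays. Control replicate 1 thus lacked the high rank of these markers that the other 5 arrays showed. Markers of pachytene spermatocytes had median percentiles from 97.5 to 98.4 on the shRNA arrays, against 50.3 and 65.1 on the control arrays, and 4 measured Leydig cell markers from 95.5 to 96.5, against 54.5 and 89.2. Sertoli cell markers had medians from 78.0 to 80.5 on the shRNA arrays, against 81.3 and 84.2 on the control arrays, macrophage markers from 67.5 to 69.0, against 67.8 and 74.5, and endothelial markers from 46.7 to 56.7, against 85.0 and 71.0. Pachytene and Leydig transcripts were thus read at high rank on arrays labelled as elongating spermatids, and their part in the results was not tested.

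The enzymes followed the spermatid markers across the arrays. The 9 measured genes had a median percentile of 97.7 and 96.9 in shMiwi cells, 98.8 and 98.8 in shCaf1 cells, and 33.4 and 98.7 on control replicates 1 and 2. On control replicate 1 their percentiles ranged widely, between 14.9 and 96.1, whereas the lowest value on any other array was 80.0, for Pkm on shMiwi replicate 2. The summed signal of the 9 enzymes was 71222 and 66781 in shMiwi cells, 92760 and 100289 in shCaf1 cells, and 4878 and 221021 on the control arrays. The 12 spermatid markers summed to 138463 and 127185 in shMiwi cells, 194974 and 207675 in shCaf1 cells, and 5843 and 677601 on the control arrays.

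**Figure D1:**
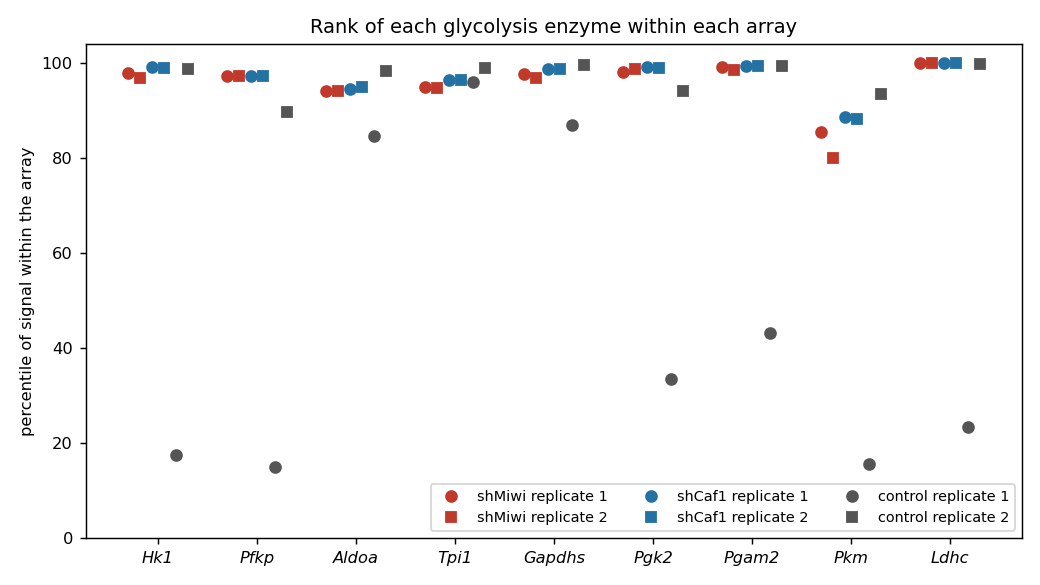
Percentile of each enzyme's signal among all probe sets of the same array (y axis) for the 9 measured genes in pathway order (x axis), with 1 point for each of the 6 arrays. The shMiwi and shCaf1 points sit between 80.0 and 100 for every gene, control replicate 2 sits at 89.6 or above, and control replicate 1 reaches 96.1 for Tpi1 and falls to 14.9 for Pfkp.

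Between the shRNA groups, 5 of the 9 enzymes passed the test as lower in shMiwi than in shCaf1 cells on the deposited scale, namely Hk1, Tpi1, Gapdhs, Pgk2 and Pgam2, with 0 higher. In all 9 genes both shMiwi arrays read below both shCaf1 arrays on that scale. Among all 14298 genes tested, 4.85% were called lower, 4.27% higher, and 27.9% were lower with no overlap between the groups. The median difference of the 9 enzymes was -0.55 on the log2 scale, against -0.001 for all genes. Calls are at an adjusted p under 0.05 in limma's moderated test on log2(signal + 16) over the 4 shRNA arrays, with Benjamini-Hochberg adjustment over 27022 probe sets, and each gene is given by its probe set with the highest mean. In sorted cells as in any bulk sample, fewer cells of a type and less RNA per cell cannot be told apart.

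Hexokinase phosphorylates glucose on entry to the pathway, and Hk1 (chr10:62268855-62379920) encodes the form that germ cells make from a transcript of their own. Its signal was 6427 and 5111 in shMiwi cells and 11152 and 12080 in shCaf1 cells, a log2 difference of -1.02 (SE 0.13, 95% interval -1.31 to -0.73, limma adjusted p = 0.00577, n = 2 per group). The shMiwi level was thus 0.495 times the shCaf1 level, the lowest ratio among the 9 genes. A second, dimmer Hk1 probe set read 377 and 254 in shMiwi cells against 663 and 511 in shCaf1 cells, with a difference of -0.88 (limma adjusted p = 0.048).

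Phosphofructokinase commits the sugar to glycolysis and aldolase splits it. The platelet-type phosphofructokinase Pfkp (chr13:6579874-6649060) had nearly equal signals, 5642 and 5830 in shMiwi cells and 5912 and 6083 in shCaf1 cells. The log2 difference of -0.06 did not pass the test (95% interval -0.30 to 0.17, limma adjusted p = 0.756). Its dimmer probe sets did not follow, since 1 read 227 and 179 in shMiwi cells against 138 and 42 in shCaf1 cells, a difference of 1.20 (limma adjusted p = 0.112), and the other gave -0.35. Aldoa (chr7:126795234-126800994), the aldolase of muscle and most other tissues, was likewise close, at 2992 and 3117 in shMiwi cells and 3329 and 3575 in shCaf1 cells. Its difference of -0.18 did not pass (95% interval -0.43 to 0.08, limma adjusted p = 0.387), and its 5 probe sets, all of a kind that may cross-hybridize with related transcripts, lay between -0.18 and 0.10.

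Triose-phosphate isomerase and the following enzymes handle the 3-carbon sugars. Tpi1 (chr6:124810586-124814158) read 3466 and 3439 in shMiwi cells and 4774 and 4998 in shCaf1 cells, a log2 difference of -0.50 (SE 0.11, limma adjusted p = 0.0318). All 3 Tpi1 probe sets passed the test as lower, between -0.61 and -0.50. Gapdhs (chr7:30729779-30744791), the spermatid glyceraldehyde-3-phosphate dehydrogenase that binds to the fibrous sheath and is needed for sperm motility in mice, read 6146 and 5297 in shMiwi cells and 9905 and 10940 in shCaf1 cells. Its difference was -0.87 (SE 0.12, 95% interval -1.13 to -0.60, limma adjusted p = 0.00721), second in size to that of Hk1.

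The enzymes that follow form ATP and rearrange its product. Pgk2 (chr17:40207018-40208609), the germ-cell phosphoglycerate kinase, read 6927 and 8802 in shMiwi cells and 11425 and 11870 in shCaf1 cells, with a log2 difference of -0.58 (SE 0.13, limma adjusted p = 0.0337). The shMiwi arrays were farther apart for Pgk2 than the shCaf1 arrays, and the groups did not overlap. Pgam2 (chr11:5801637-5803796), the phosphoglycerate mutase of muscle and sperm, read 9772 and 8690 in shMiwi cells and 13368 and 13651 in shCaf1 cells, a difference of -0.55 (SE 0.10, limma adjusted p = 0.0205).

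The last 2 enzymes make pyruvate and lactate. Pkm (chr9:59656576-59679372), a pyruvate kinase, read 1135 and 683 in shMiwi cells and 1477 and 1396 in shCaf1 cells. Its difference of -0.70 was larger than that of Pgk2 but the shMiwi arrays varied more, and it did not pass (95% interval -1.18 to -0.21, limma adjusted p = 0.0867). Ldhc (chr7:46861263-46878147), the testis-specific lactate dehydrogenase subunit whose promoter is printed above, read 28714 and 25812 in shMiwi cells and 31418 and 35696 in shCaf1 cells. Its difference of -0.30 did not pass (95% interval -0.53 to -0.07, limma adjusted p = 0.113), and its second probe set gave -0.35 (limma adjusted p = 0.133).

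**Figure D2:**
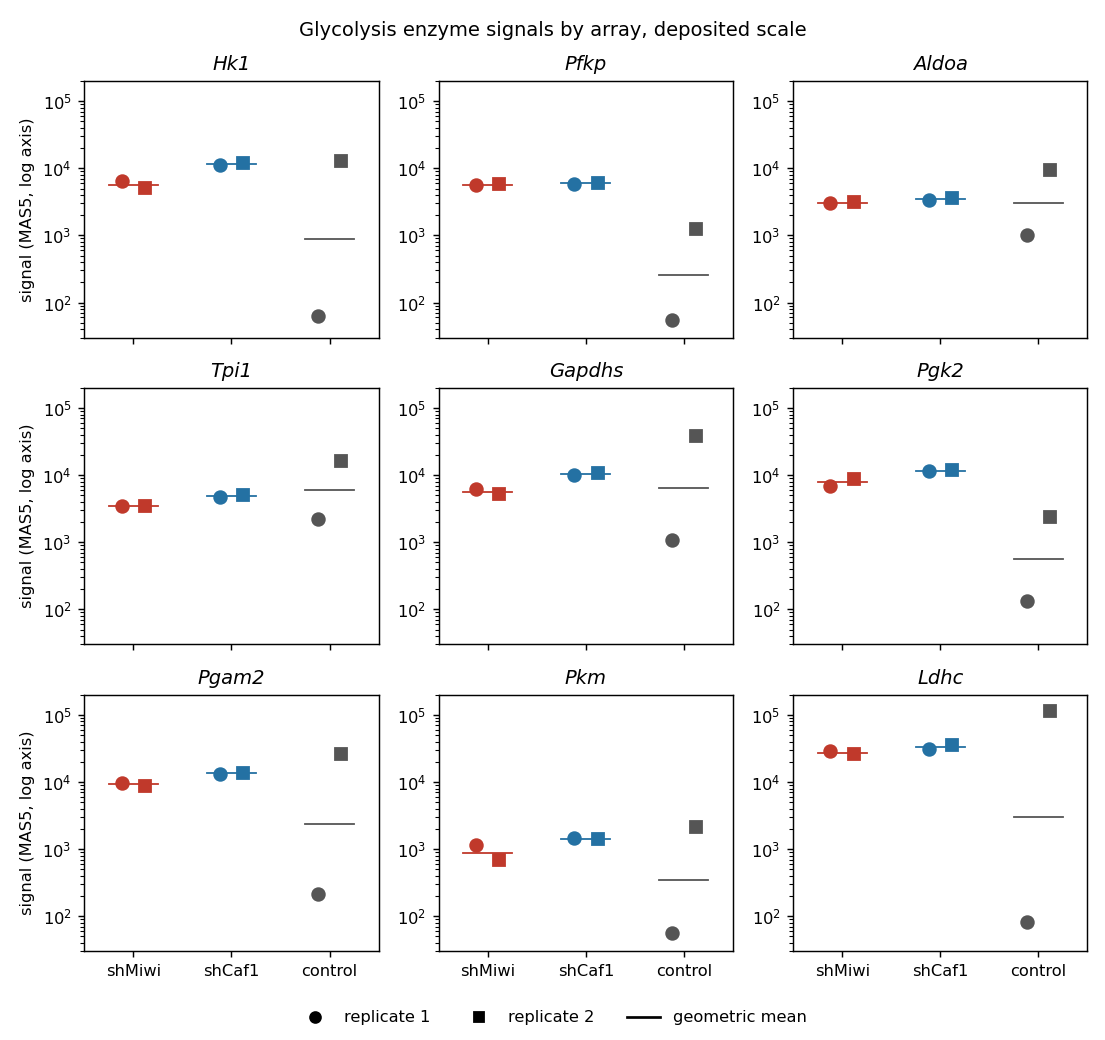
Deposited signal (y axis, log scale) of each of the 9 measured enzymes on the 6 arrays, by group (x axis), with circles for replicate 1, squares for replicate 2 and a bar at the geometric mean. The shMiwi points lie below the shCaf1 points in every panel, while the 2 control points lie far apart, for example 82 and 112941 for Ldhc.

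Over the probe sets, 8 of 19 were called lower, against 3.52% of all probe sets, and 14 of 19 were lower with no overlap, against 25.3%. The differences of the 19 ran from -1.02 to 1.20 with a median of -0.35, and 17 were below 0. Probe sets of 1 gene share its transcript and are not separate observations.

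The calls depended on the model of the spread and on scaling. None of the 5 was called when limma's variance prior ignored intensity (adjusted p between 0.143 and 0.194) or when the control arrays joined the fit, and without shCaf1 replicate 1, or without shCaf1 replicate 2, only Hk1 and Gapdhs were called. With the arrays scaled on the added control RNAs, again 2 of 9 were called lower, Hk1 at -0.62 (limma adjusted p = 0.00855) and Gapdhs at -0.47 (limma adjusted p = 0.0472), against 1.13% of all genes. That scaling moved the median of all tested probe sets to 0.38, against 0.02 as deposited, and put the median of the 9 enzymes at -0.15. Pfkp, Aldoa and Ldhc turned to 0.33, 0.22 and 0.10. On that scale 3 of 9 enzymes were lower with no overlap, against 6.49% of all genes. Another 3 of 9 were higher with no overlap, against 61.1% of all genes. Over the 19 probe sets that scaling gave a median of -0.04, with 10 below 0 and 2 called lower, and the dim Pfkp probe set was then called higher at 1.54 (limma adjusted p = 0.000217). Relative to the median of all tested probe sets the 9 enzymes lay between -1.03 and -0.08 as deposited, and nearly so on the other scale by construction, since each array is divided by 1 factor.

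**Figure D3:**
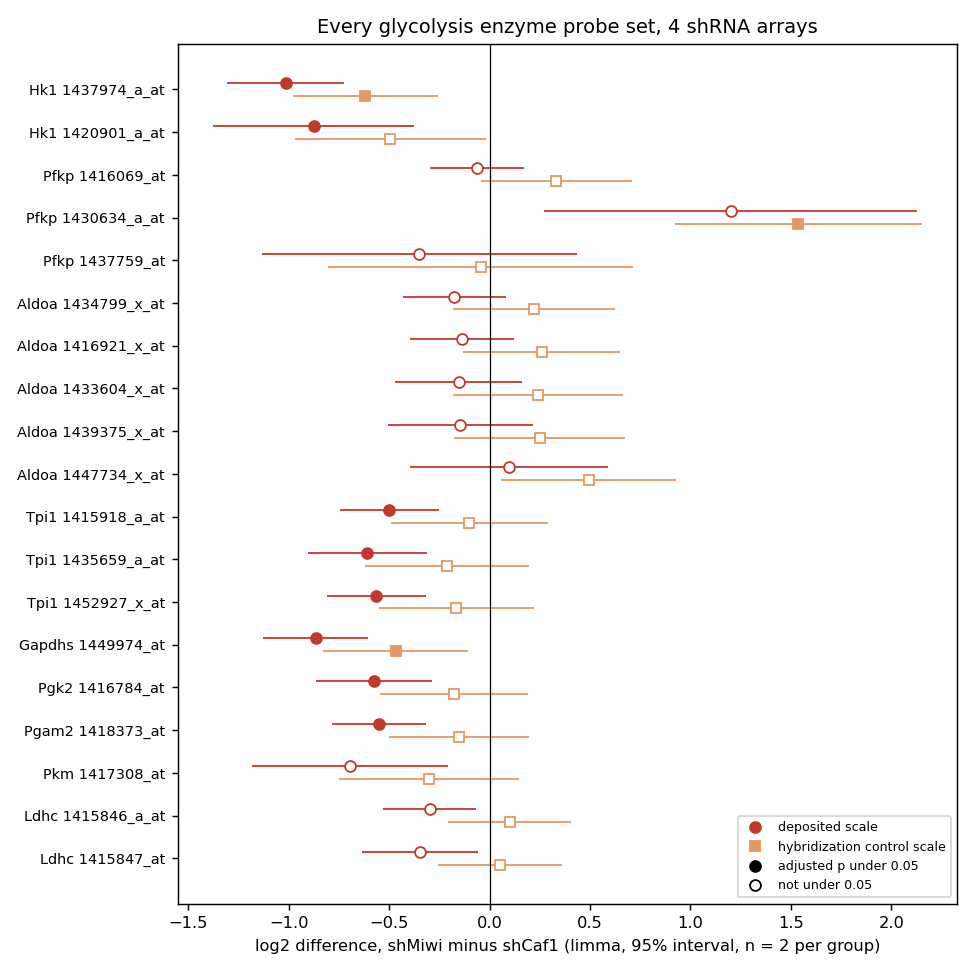
Log2 difference of shMiwi minus shCaf1 (x axis) for each of the 19 probe sets (rows), with 95% intervals from limma over 4 arrays, on the deposited scale and on the scale of the added control RNAs. The brightest Hk1 probe set lies lowest on both scales, at -1.02 as deposited, followed by the other Hk1 probe set and Gapdhs at -0.88 and -0.87, and the dim Pfkp probe set at 1.20 is the highest.

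Other genes of the pathway did not follow as a group. Of 19 other isoforms of glycolytic enzymes, 15 had a probe set of their own and 14 were tested. Eno1, the common enolase, was among those without one. Of the 14, 3 were called lower and 1 higher in shMiwi than in shCaf1 cells, with a median difference of -0.03. The 3 lower genes were Aldoart1 and Aldoart2, aldolase retrogenes expressed in sperm, and Eno3, the muscle enolase. Aldoart1 read 1215 and 1469 in shMiwi cells against 2142 and 2413 in shCaf1 cells (log2 difference -0.76, limma adjusted p = 0.0208), Aldoart2 differed by -0.72 (limma adjusted p = 0.0189) and Eno3 by -0.55 (limma adjusted p = 0.0377). The higher gene was Eno4, an enolase needed in mouse sperm, at 2869 and 2978 in shMiwi cells against 1995 and 2117 in shCaf1 cells (log2 difference 0.51, limma adjusted p = 0.0386). On the scale of the added control RNAs Eno4 was also called higher, at 0.90 (limma adjusted p = 0.00105), and none of the 3 lower genes was called, with differences of -0.36, -0.33 and -0.15.

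Somatic counterparts of the enzymes did not pass the test. Hk2 differed by 0.18 (limma adjusted p = 0.396), Pgk1 by 0.10 (limma adjusted p = 0.719), Pgam1 by 0.40 (limma adjusted p = 0.199) and Ldha by -0.22 (limma adjusted p = 0.22). Of 8 transporters of glucose and lactate, 1 was called higher, the lactate exporter Slc16a3, whose signals were 122 and 102 in shMiwi cells against 24 and 42 in shCaf1 cells (limma adjusted p = 0.0394). Slc2a3, the GLUT3 glucose transporter of sperm, read 20059 and 16815 in shMiwi cells against 21559 and 22475 in shCaf1 cells and did not pass (limma adjusted p = 0.178). Of 9 tested genes, from 10 listed, that regulate glycolysis or lead out of it, 1 was called lower, Bpgm, which makes 2,3-bisphosphoglycerate (log2 difference -0.57, limma adjusted p = 0.0306). Of all genes, 4.85% were called lower and 4.27% higher. On the scale of the added control RNAs, 0 of these 9 genes were called lower and 2 higher. Of the 8 transporters, 4 were then called higher, against 26.4% of all genes.

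Within an array, a ratio of an enzyme gene to a counterpart does not depend on scaling. Set against the shCaf1 mean, the log2 ratio of Hk1 to Hk2 was -0.97 and -1.41 on the shMiwi arrays, against -0.07 and 0.07 on the shCaf1 arrays. For Gapdhs over the Gapdh control probe set it was -0.99 and -0.72 on the shMiwi arrays, against -0.08 and 0.08 on the shCaf1 arrays. In both pairs the shMiwi arrays lay below the shCaf1 arrays. For Pgk2 over Pgk1 the ratio was -0.75 and -0.59 on the shMiwi arrays, against -0.05 and 0.05 on the shCaf1 arrays. For Pgam2 over Pgam1 it was -0.66 and -1.25 on the shMiwi arrays, against 0.15 and -0.15 on the shCaf1 arrays. In 5 of the 7 pairs computed, the first gene lay lower against its counterpart on both shMiwi arrays than on either shCaf1 array. Those were these 4 and Ldhc over Ldha, which differed by only -0.08. The Ldhc ratio was -0.04 and -0.12 on the shMiwi arrays, against -0.04 and 0.04 on the shCaf1 arrays. Its replicate 1 arrays were thus nearly tied. Ratios of other gene pairs were not counted for comparison. Pfkp over Pfkm and Aldoa over Aldoart1 differed the other way, by 0.28 and 0.58. In the aldolase pair the retrogene expressed in sperm, Aldoart1, is the second gene and was the one that read lower. The pairs were chosen with values known, and with 2 arrays against 2 an exact permutation test cannot give a p below 0.333.

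Markers of elongating spermatids moved in the same direction as the enzymes. All 12 were lower in shMiwi than in shCaf1 cells with no overlap, 9 of 12 were called, and their median difference was -0.64. On the scale of the added control RNAs, 3 of the 12 were called lower, 10 were below 0 and the median was -0.24. Markers of round spermatids had 2 of 7 called lower and a median of -0.21, and those of pachytene spermatocytes 0 of 7 called and a median of 0.24, while 1 of 4 Leydig cell markers was called higher. On the scale of the added control RNAs, 5 of 7 pachytene markers, with a median of 0.64, and 2 of 4 Leydig cell markers were called higher. Of all genes, 26.4% were called higher on that scale, and their median difference was 0.37. The summed signal of the pachytene markers was 44594 and 50300 in shMiwi cells, against 41523 and 44601 in shCaf1 cells. The ratio of 3′ to 5′ signal for Actb, a measure of RNA quality, was 2.05 and 3.01 in shMiwi cells against 2.87 and 4.69 in shCaf1 cells. The part of these shifts in the enzymes' difference was not tested.

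**Figure D4:**
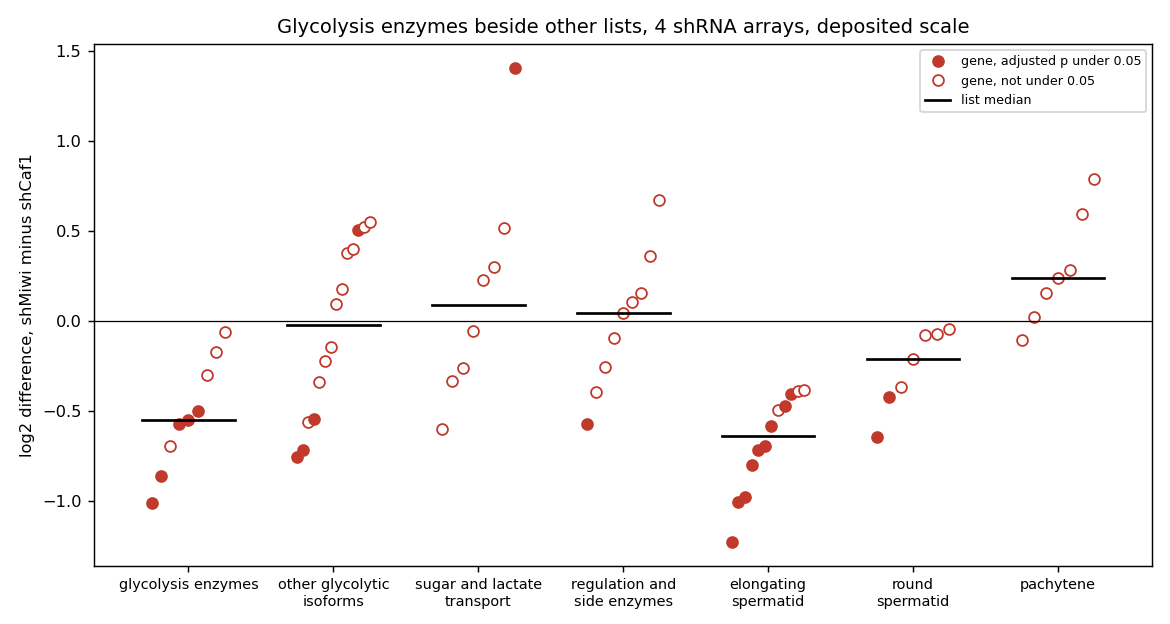
Log2 difference of shMiwi minus shCaf1 (y axis, deposited scale) for every tested gene of the enzyme list and of the lists set beside it (x axis), with filled points for genes under the adjusted p of 0.05 and a bar at each list's median. The 9 enzymes (median -0.55) and the 12 elongating spermatid markers (median -0.64) lie below 0, and the pachytene markers (median 0.24) lie mostly above.

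Against the control vector, the 2 control arrays bracketed most of the enzymes on the deposited scale. Control replicate 1 read lower than all 4 shRNA arrays for 9 of 9 genes, and control replicate 2 read higher than all 4 for 7 of 9. The share of all genes placed in this way was not counted, so these counts are not read as a trait of the enzymes. In shMiwi cells 0 of 9 genes were called higher and 0 lower, against 18.6% and 22.7% of all genes. In shCaf1 cells 1 of 9 was called higher, Pgk2, and 0 lower, against 17.2% and 22.4% of all genes. The median difference of the 9 was 1.93 in shMiwi cells, with 3 below 0, and 2.48 in shCaf1 cells, with 1 below 0, against medians of 0.09 and 0.07 for all genes. Both comparisons share the same 2 control arrays, and limma was fitted over all 6 arrays.

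Pgk2 and Pfkp were the 2 of 9 genes that exceeded both control arrays on the deposited scale. Among all genes, 34% in shMiwi cells and 33.7% in shCaf1 cells did so. Pgk2, with the shMiwi and shCaf1 signals given above, read 134 and 2362 on the control arrays. Its difference from control was 3.71 in shMiwi cells (SE 1.28, 95% interval 0.46 to 6.96, limma adjusted p = 0.0681) and 4.29 in shCaf1 cells (SE 1.28, 95% interval 1.03 to 7.54, limma adjusted p = 0.0471). The shCaf1 value lies close to the threshold and was not called with, among other alternatives, an added constant of 1 (limma adjusted p = 0.0512) or with quantile normalization (limma adjusted p = 0.0968). Pfkp read 54 and 1254 on the control arrays. Its differences of 4.27 in shMiwi cells and 4.33 in shCaf1 cells just missed the threshold (limma adjusted p = 0.0513 and 0.0509). The 2 dimmer Pfkp probe sets lay below 0 against control, down to -1.66 in shMiwi cells and -2.18 in shCaf1 cells. Neither was called.

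The other 7 genes lay between the controls. Ldhc read 82 on control replicate 1 and 112941 on control replicate 2, so that the shMiwi mean lay at 8.13 and -2.05 relative to them on the log2 scale, and the shCaf1 mean at 8.42 and -1.75. Hk1 read 62 and 12815 on the control arrays, which put the shMiwi mean at 6.21 and -1.16 and the shCaf1 mean at 7.22 and -0.14 relative to them. Gapdhs read 1089 and 37821, and the shMiwi mean lay at 2.37 and -2.73 and the shCaf1 mean at 3.24 and -1.86. On the deposited scale the sign of these differences thus depended on which control array was used. With the arrays scaled on the added control RNAs, all 9 enzymes lay above each control array, by at least 1.48 in shMiwi cells and 1.95 in shCaf1 cells against control replicate 2. Most genes did so on that scale. Among all genes, 96.4% in shMiwi cells and 95% in shCaf1 cells read above both control arrays with no overlap.

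On control replicates 1 and 2 Pgam2 read 211 and 26007, Pkm 56 and 2127, Tpi1 2190 and 16197, and Aldoa 1000 and 9497. Averaged over both controls their differences in shMiwi cells were 1.93, 1.19, -0.79 and -0.02, and in shCaf1 cells 2.48, 1.88, -0.29 and 0.16, with standard errors of 2.15, 1.56, 0.96 and 1.06. None of these passed the test. In each gene the difference was smaller than the standard deviation of the 2 control arrays, at 4.839, 3.459, 2.035 and 2.281. The dimmer Hk1 probe set, which read 101 and 12 on the control arrays, was called higher in shMiwi cells (2.51, limma adjusted p = 0.0435) and in shCaf1 cells (3.39, limma adjusted p = 0.0192).

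**Figure D5:**
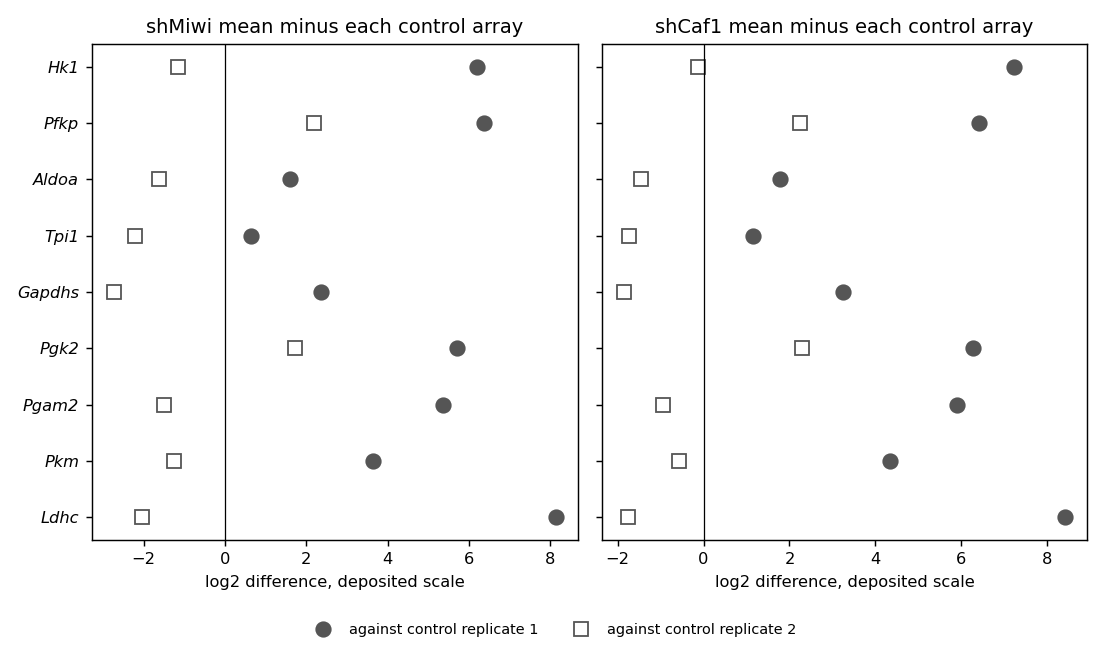
Log2 difference between the mean of the 2 shMiwi arrays (left) or the 2 shCaf1 arrays (right) and each control array alone (x axis, deposited scale) for the 9 enzymes (rows), with filled circles for control replicate 1 and open squares for control replicate 2. All circles lie above 0, up to 8.13 for shMiwi and 8.42 for shCaf1, and only Pfkp and Pgk2 have a square above 0.

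The calls turned with the control array left out, and with 1 control array the spread comes from the shRNA arrays alone, so that most genes were called. Without control replicate 1, 2 of 9 enzymes were called higher and 7 lower in shMiwi cells, and 2 higher and 5 lower in shCaf1 cells, while 5354 and 6173 of all 14298 genes were called higher and lower in shMiwi cells and 5262 and 6057 in shCaf1 cells. Without control replicate 2, all 9 were called higher and 0 lower in both, while 6279 and 5805 of all genes were called higher and lower in shMiwi cells and 6180 and 5867 in shCaf1 cells. With the arrays scaled on the added control RNAs, all 9 were called higher than control in both comparisons, as were 92.7% of all genes in shMiwi and 90.8% in shCaf1 cells. The median of all genes was then 4.03 in shMiwi and 3.60 in shCaf1 cells, against a median of 5.83 and 6.09 for the enzymes. The amount of labelled RNA on the control arrays and the vector cannot be told apart.

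Among the other pathway genes, some exceeded or fell below both control arrays. Of the 14 other isoforms, 3 were called higher and 3 lower in both shMiwi and shCaf1 cells, shares near those of all genes given above. Aldoart1 read 19 and 34 on the control arrays and was higher by 5.02 in shMiwi cells (limma adjusted p = 0.00374) and by 5.78 in shCaf1 cells (limma adjusted p = 0.0047), and Hk2 by 2.40 (limma adjusted p = 0.0123) and 2.22 (limma adjusted p = 0.0159). Pklr, the pyruvate kinase of liver and red cells, differed by -4.37 in shMiwi and -3.81 in shCaf1 cells, and Hk3 by -2.79 and -3.34. These Hk3 values are of the probe set that is brightest through the control arrays, and the other Hk3 probe set was called higher, by 2.19 in shMiwi cells (limma adjusted p = 0.0104) and 2.48 in shCaf1 cells (limma adjusted p = 0.00882). With the arrays scaled on the added control RNAs, Pklr and Hk3 turned to 0.35 and 1.76 in shMiwi cells and to 0.63 and 0.88 in shCaf1 cells.

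Carriers of lactate and pyruvate were also among the genes called. Slc16a1, a monocarboxylate transporter, was higher than control by 6.58 in shMiwi cells (limma adjusted p = 0.00374) and by 6.06 in shCaf1 cells (limma adjusted p = 0.0047). The control signals of Slc16a1, at 23 and 12, and of Aldoart1 are near the added constant of 16, which sets the size of these differences. Another Slc16a1 probe set went the other way but did not pass the filter on low signals and was not tested. It read 5 and 12 in shMiwi and 7 and 8 in shCaf1 cells, against 1293 and 123 in control cells. Slc16a7, another member of that family, was higher by 3.96 (limma adjusted p = 0.00531) and 4.01 (limma adjusted p = 0.00603). The glucose transporter Slc2a1 was higher by 1.16 in shMiwi cells (limma adjusted p = 0.0403) and, in shCaf1 cells, by 0.93, which did not pass (limma adjusted p = 0.0765). Another Slc2a1 probe set leaned the other way. It read 321 and 267 in shMiwi and 390 and 348 in shCaf1 cells, against 424 and 1109 in control cells. The remaining one read 518 and 583 in shMiwi and 503 and 528 in shCaf1 cells, against 102 and 467 in control cells. Slc16a3 differed by -2.02 in shMiwi and -3.43 in shCaf1 cells, which turned to 2.18 and 0.46 on the scale of the added control RNAs. The testis form of the pyruvate dehydrogenase subunit, Pdha2, was higher by 3.93 in shMiwi cells (limma adjusted p = 0.0179) and by 3.78 in shCaf1 cells (limma adjusted p = 0.0208). Pfkfb2, which makes the activator of phosphofructokinase, was higher by 2.39 in shMiwi cells (limma adjusted p = 0.00627) and by 2.28 in shCaf1 cells (limma adjusted p = 0.00753). Another Pfkfb2 probe set was called lower, at -2.76 in shMiwi cells (limma adjusted p = 0.0168) and -2.62 in shCaf1 cells (limma adjusted p = 0.0205). The X-linked somatic counterpart of Pdha2, Pdha1, differed by -4.92 in shMiwi and -4.97 in shCaf1 cells on the deposited scale, and by 0.26 and -0.14 in these cells on the scale of the added control RNAs. That probe set is brightest through the control arrays, and the other Pdha1 probe set differed by 0.63 in shMiwi cells (limma adjusted p = 0.691) and 0.33 in shCaf1 cells (limma adjusted p = 0.838).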

How the data were processed

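The authors deposited 1 linear signal intensity per probe set and array, for 45101 probe sets on 6 arrays, and the submitters' processing notes name MAS5 without a version. Each deposited array has a 2% trimmed mean of 500, so that arrays with less bright signal were scaled up more. Labelling used a 3′ IVT kit per the labels' protocols. Sample titles gave the groups.

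A constant of 16 was added before taking log2, which understates differences of dim probe sets. After removing 64 control probe sets, those whose mean log2 exceeded the 40th percentile were tested, in number 27022 (23660 with 1 gene symbol, 672 with several, 2690 with none). A gene was represented by its brightest probe set, by mean log2 over the 6 arrays, giving 14298 genes. The limma package 3.58.1 in R 4.3.3 (lmFit, eBayes with an intensity trend) was fitted to the 4 shRNA arrays for shMiwi against shCaf1 (2 residual degrees of freedom) and to all 6 arrays against control (3 residual degrees of freedom). All p-values were adjusted by Benjamini-Hochberg over the tested probe sets. The fits were tested on simulated data. Probe brightness and the number of arrays limit the precision, and detection calls were not used here.

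A second scale divided each array by its 18 hybridization control probe sets. Gene coordinates and promoter windows are from RefSeq (GRCm38.p6), whose symbols matched 99.4% of those on the array. The enzymes, the other gene lists, the motifs and the tests were chosen with earlier results of these data known. Named beyond the enzymes are the targeted genes, somatic isoforms, pathway genes called between the shRNA groups, and up to 4 called pathway genes per list against control. Other constants, filters, normalizations, variance models, choices of probe set, a replicate block and fits without each array in turn were run as alternatives.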

Additional observations from a re-analysis of the deposited data

How the results depend on the processing

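Between shMiwi and shCaf1, Hk1 and Gapdhs were called lower in 13 of 15 alternatives, with differences between -1.18 and -0.62 and between -0.97 and -0.47. Tpi1 was called in 9, Pgam2 in 8, Pgk2 in 7, Pkm in 3, Ldhc in 1 and Pfkp and Aldoa in 0 of 15. The number of enzymes called lower, 5 as reported, was 2 without a filter, 3 with quantile normalization, 2 on the hybridization scale, 0 without an intensity trend, 0 with all 6 arrays in the fit, 6 with median centring, 7 with the replicate number as a block and 2 to 5 when 1 array was left out. Of all probe sets 1981 were called, against 568 without a filter, 7145 on the hybridization scale, 15 without a trend, 0 with all 6 arrays (264 at an unadjusted p under 0.05) and 276 to 3878 when 1 array was left out. The 1981 split into 1030 higher and 951 lower, against 577 and 1097 with median centring and 6887 and 258 on the hybridization scale. Reversed differences were Pfkp at 0.048 and Ldhc at 0.044 with quantile normalization, and Pfkp at 0.33, Aldoa at 0.22 and Ldhc at 0.10 on the hybridization scale. The deviations of same-numbered replicates correlated at 0.181 between shMiwi and shCaf1, 0.004 between shMiwi and control and 0.061 between shCaf1 and control, which does not establish pairing; with the replicate number as a block 5458 probe sets were called.

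For shMiwi against control, 11687 probe sets were called, against 18076 without a filter, 6793 with a 60th percentile filter, 24458 on the hybridization scale, 6632 with the 4 arrays of the groups compared and 0 to 22700 when 1 array was left out. Enzymes called higher, 0 as reported, were 1 with an added constant of 64, 1 without a filter, 9 on the hybridization scale and 0 to 9 when 1 array was left out, and those called lower 0 to 7. Reversed values were 0.17 for Gapdhs with quantile normalization, 0.30 for Gapdhs and 0.46 for Aldoa with median centring, 4.76 for Aldoa, 4.26 for Tpi1 and 4.65 for Gapdhs on the hybridization scale, and 1.56 for Aldoa and 1.52 for Tpi1 with the probe set brightest on the shRNA arrays. Leaving out 1 array gave -1.16 to 6.21 for Hk1, -1.63 to 1.60 for Aldoa, -2.23 to 0.65 for Tpi1, -2.73 to 2.37 for Gapdhs, -1.50 to 5.35 for Pgam2, -1.26 to 3.64 for Pkm and -2.05 to 8.13 for Ldhc.

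For shCaf1 against control, 11205 probe sets were called, against 17244 without a filter, 6448 with a 60th percentile filter, 23679 on the hybridization scale, 5941 with the 4 arrays of the groups compared and 0 to 22675 when 1 array was left out. Enzymes called higher, 1 as reported, were 0 with an added constant of 1, a 60th percentile filter, quantile normalization or the 4 arrays compared, 2 with a constant of 64, without a filter or with median centring, 9 on the hybridization scale and 0 to 9 when 1 array was left out, and those called lower 0 to 5. Tpi1 reversed to 0.27 with median centring, 4.36 on the hybridization scale and 2.09 with the probe set brightest on the shRNA arrays. Leaving out 1 array gave -0.14 to 7.22 for Hk1, -1.46 to 1.77 for Aldoa, -1.73 to 1.15 for Tpi1, -1.86 to 3.24 for Gapdhs, -0.94 to 5.90 for Pgam2, -0.56 to 4.33 for Pkm and -1.75 to 8.42 for Ldhc. Apart from the fits with fewer samples or probe sets, the cause of these changes was not tested.

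Of the called probe sets, 4559 were higher and 7128 lower in shMiwi than in control cells, against 5801 and 5858 with median centring, 5537 and 3973 with quantile normalization and 24432 and 26 on the hybridization scale. In shCaf1 cells 4186 were higher and 7019 lower, against 5653 and 5459, 5293 and 3753, and 23669 and 10. With 2 arrays per group and no detection calls, dim probe sets are read with least certainty.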
